A study of Mus musculus with 14 samples.

Results

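The insulin-like growth factor (IGF) axis was examined in sorted mouse hair follicle stem cells through 9 genes. They are the binding protein genes Igfbp2, Igfbp3, Igfbp4, Igfbp5, Igfbp6 and Igfbp7 and the receptor genes Igf1r, Igf2r and Insr, out of 34049 genes with any count. Igfbp7 was selected on its measured P18 values: it had one of the smallest p-values between Irx5KO and WT cells at postnatal day 18 (P18), and the others because they belong to the same family of carriers and receptors. The P18 genotype values of these genes are therefore given as a description, without a test. All 9 genes passed the filter on low counts.

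The study knocked out Irx5, a homeobox transcription factor of the Iroquois family, and sequenced hair follicle stem cells from mouse back skin. The cells were sorted as CD34+ and Ly-6A/E- and positive for a marker that the labels write as CD45f. There were 3 Irx5KO and 3 WT libraries at P18, and 4 Irx5KO and 4 WT libraries at P20, 14 in all. The strain, the sex, the allele, the part of Irx5 that was removed and whether a library came from 1 animal or several are not given in the sources used here, so p-values measure only the spread between these libraries. File names carry a numeric code that reads as a date. At P18 the earlier date held Irx5KO library 1 and WT libraries 1 and 2, and the later date the other 3 libraries. At P20 the earlier date held libraries 3 and 4 of both genotypes and the later date libraries 1 and 2 of both.

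Library totals ran from 13618367 to 70083873 estimated counts. Odorant and vomeronasal receptor genes, 1740 in number, took 1.78%, 5.37% and 2.37% of the counts of P18 WT libraries 1 and 2 and P20 WT library 2, and 0.102% to 0.604% in the other 11 libraries. The file name of P18 WT library 3 carries the letters "het" although its title says WT. Ddx3y, a Y-linked gene, had at most 0.571 CPM in 5 libraries and at least 53.6 CPM in the other 9, and at P18 this split followed the date. Bulge stem cell markers such as Krt15 (4830 to 17220 CPM), Cd34 (242 to 919 CPM) and Lhx2 (216 to 510 CPM) were present in all 14 libraries. Endothelial markers summed to 43.0 to 61.0 CPM in P18 Irx5KO libraries and 46.2 to 161 CPM in P18 WT libraries, and dermal fibroblast and papilla markers, led by Thy1, to 198 to 359 CPM and 292 to 1474 CPM in the same groups. CPM is a gene's count scaled to a common library size.

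Irx5 itself had 48.0, 70.6 and 73.4 CPM in P18 Irx5KO libraries, against 93.8, 110 and 132 CPM in P18 WT libraries. In P20 libraries 1 and 2 it had 30.0 and 18.1 CPM in Irx5KO, against 108 and 93.5 CPM in WT. In P20 libraries 3 and 4 the order was the opposite of the labels, with 181 and 170 CPM in the libraries labelled Irx5KO, against 33.2 and 37.5 CPM in the libraries labelled WT. Gene-level counts include transcript parts outside a deletion, so a remaining signal does not show a functional gene. Mki67, a marker of dividing cells, was at 18.5 and 14.5 CPM in P20 Irx5KO libraries 1 and 2, against 429 and 228 CPM in WT libraries 1 and 2. Mki67 in libraries 3 and 4 reached 1252 and 1418 CPM under the Irx5KO label, against 10.5 and 3.75 CPM under the WT label. Genotype differences at P20 are therefore given within each date as well as pooled.

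IGF-I and IGF-II are secreted factors that act through the IGF-I receptor, a tyrosine kinase that passes the signal to insulin receptor substrates, PI3K, AKT and mTOR. Igfbps are secreted carriers that hold the ligands in the tissue, keep them from the receptor or deliver them when a protease cuts the carrier. In hair, IGF-I comes mainly from the dermal papilla and is known to sustain the growth phase, and back skin follicles of young mice pass from rest to growth near the ages sampled.

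The promoter windows of Igfbp7, Igfbp4 and Igfbp5 are shown because Igfbp7 defined the gene set and Igfbp4 and Igfbp5 are the members whose genotype differences passed the test within a P20 date. Each runs up to the base before the RefSeq gene start and is written 5′ to 3′ on the gene's strand, from RefSeq on GRCm38.p6. Igfbp7 lies at chr5:77408046-77408295 on the minus strand, Igfbp4 at chr11:99040994-99041243 on the plus strand and Igfbp5 at chr1:72874866-72875115 on the minus strand. Capitals mark GC boxes on either strand in Igfbp7, and in Igfbp4 the TATA box.
Igfbp7: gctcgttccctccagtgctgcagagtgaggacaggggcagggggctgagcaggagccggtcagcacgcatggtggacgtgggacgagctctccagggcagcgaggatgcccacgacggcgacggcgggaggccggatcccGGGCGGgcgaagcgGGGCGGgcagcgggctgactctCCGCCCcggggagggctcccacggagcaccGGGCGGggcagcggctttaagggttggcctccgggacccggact
Igfbp4: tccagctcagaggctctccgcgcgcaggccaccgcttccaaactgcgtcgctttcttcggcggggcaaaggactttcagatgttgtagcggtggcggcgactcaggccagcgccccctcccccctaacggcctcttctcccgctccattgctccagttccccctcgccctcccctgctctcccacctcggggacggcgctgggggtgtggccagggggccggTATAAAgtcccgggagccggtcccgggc
Igfbp5: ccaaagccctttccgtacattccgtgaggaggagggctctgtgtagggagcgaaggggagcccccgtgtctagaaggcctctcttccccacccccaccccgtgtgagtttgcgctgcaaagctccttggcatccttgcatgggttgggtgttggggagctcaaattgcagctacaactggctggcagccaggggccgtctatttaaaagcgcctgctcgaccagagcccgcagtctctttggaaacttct
Igfbp7 held 4 GC boxes, in a window of 74% G and C. Igfbp4 held 1 TATAAA, between 28 and 23 bases before the start. Igfbp5 held none of the 4 motifs searched, which were the GC box GGGCGG, the TATA box (TATAAA), the CCAAT box and the Iroquois palindrome ACANNTGT, each on both strands and allowed to overlap. ACANNTGT is a palindrome that Iroquois proteins of Drosophila are known to bind, and it was in none of the windows of the 8 members matched in the table. Among all 32851 windows of this length, 6.31% held ACANNTGT, 32.7% held GGGCGG, 12.4% held TATAAA and 33.9% held CCAAT. Igf1r held 2 GC boxes, Igf2r held 3, 1 of the 2 Igfbp2 windows held 3, and Igfbp6 held 1 TATAAA and 2 CCAAT.

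Levels between genes were compared in TPM, a per-length unit that divides each count by transcript length. Igfbp4, whose protein binds both IGFs and is cut by the protease Pappa, had the highest level, 419 ± 206 TPM (SD over the 14 libraries, groups mixed). Igfbp7, a secreted family member with low affinity for IGFs, followed with 116 ± 73.1 TPM. Igfbp3, the main carrier in serum, had 56.2 ± 22.4 TPM, Igfbp5, a carrier that also binds extracellular matrix, had 43.7 ± 25.6 TPM, and Igfbp6, which prefers IGF-II, had 37.3 ± 27.1 TPM. These 3 levels lay within each other's SD. Igf2r, which clears IGF-II into lysosomes, had 27.7 ± 13.3 TPM and Igf1r, the signalling receptor, had 26.6 ± 6.05 TPM, also within each other's SD. Insr, the insulin receptor, had 14.6 ± 4.39 TPM and Igfbp2, another carrier of both IGFs, had 1.30 ± 1.32 TPM. With protein-coding transcripts alone the receptor means were lower, 16.8 TPM for Igf1r, 14.9 TPM for Igf2r and 7.80 TPM for Insr. Protein-coding transcripts held 83.7% to 98.6% of Igf1r counts, 94.1% to 99.9% of Igf2r counts and 70.4% to 98.0% of Insr counts. They held 73.8% to 84.1% of Igfbp4 counts and all Igfbp3, Igfbp6 and Igfbp7 counts. For Igfbp2, with at most 86 counts in a library, the share ran from 0% to 100%.

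The ligands were near the floor. Igf1 had 1.85 to 3.28 CPM in P18 Irx5KO libraries and 2.13 to 15.4 CPM in P18 WT libraries, and 0.0687 to 5.21 CPM in P20 Irx5KO libraries and 0.303 to 6.40 CPM in P20 WT libraries. Igf2 stayed at or below 4.63 CPM in every library. The insulin genes Ins1 and Ins2 had medians of 0 and 0.0288 CPM over the 14 libraries. Of the 8 ligand and other carrier genes, 7 were tested and 0 passed in any of the 7 comparisons made.

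Igfbp7 had 168, 107 and 98.6 CPM in P18 Irx5KO libraries 1 to 3, against 73.2, 65.7 and 50.9 CPM in P18 WT libraries 1 to 3. Every Irx5KO library was above every WT library. The group means were 125 ± 38.0 CPM in Irx5KO and 63.3 ± 11.3 CPM in WT (SD, n = 3 each), a ratio of 1.97. Within the earlier date, which held 1 Irx5KO and 2 WT libraries, the ratio was 2.42. Within the later date, whose only WT library was library 3, it was 2.02. The fitted log2 fold change was 1.15 ± 0.30 (SE), and its place by p-value, the measure it was chosen by, was 2 among the 24592 genes tested. Without P18 WT library 3, whose file name reads "het", the ratio was 1.80. That ratio sets Irx5KO libraries of both dates against WT libraries of the earlier date alone. The Ddx3y split at P18 followed the date, so date and sex are not balanced in it. The Igfbp7 gene, ENSMUSG00000036256.13, spans chr5:77349240-77408041 on the minus strand (GENCODE vM21 on GRCm38). It overlaps Polr2b on the opposite strand by 85 bases, and the strand setting of the counting is not given in the sources used here. At P18 called genes made up 0% of those tested: 977 of the 24592 had an unadjusted p under 0.05 in edgeR and 0 an adjusted p under 0.05, while DESeq2 called 23 and voom 1. With scaling on all tested genes the median of the well expressed genes moved to 0.34 and Igfbp7 to 1.48. With the main scaling the median P18 log2 fold change was -0.55 over all genes tested, itself below 0, and -0.0034 over the well expressed genes. Beside that, endothelial markers were lower in P18 Irx5KO for 10 of 11 tested, immune markers for 9 of 9 and cell division genes for 12 of 12, none passing. On the earlier date the summed lists were lower in Irx5KO library 1 than in WT libraries 1 and 2. Later-date sums in Irx5KO libraries 2 and 3 were near or above those of WT library 3. Immune sums there were 65.7 and 101 CPM against 59.6 CPM, and cell division sums 70.1 and 82.5 CPM against 72.5 CPM. Endothelial sums were 47.4 and 43.0 CPM against 46.2 CPM. The part of these marker lists in the Igfbp7 value was not tested, and in bulk libraries fewer cells of a type and less RNA per cell cannot be told apart.

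**Figure D1:**
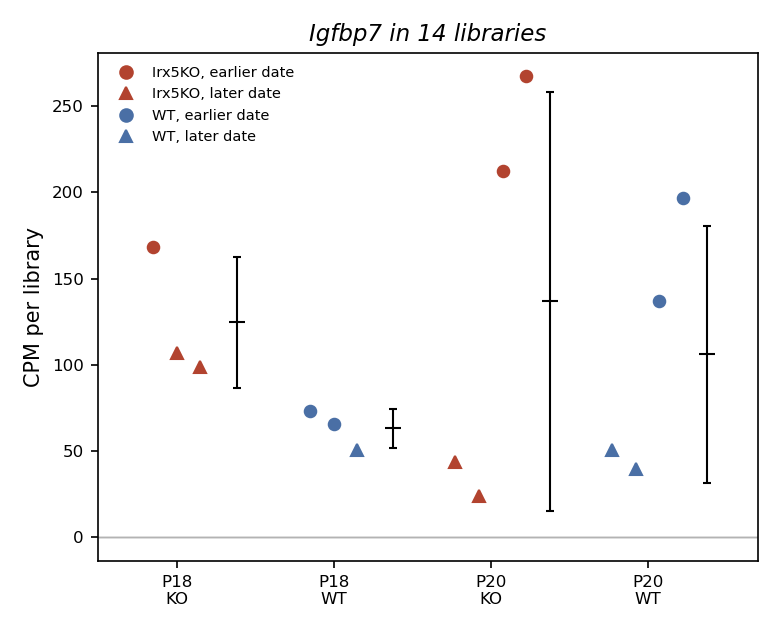
Igfbp7 level in CPM (y axis) in each of the 14 libraries, by age and genotype (x axis). Circles are the earlier and triangles the later date of each age, and the horizontal tick with bars is the group mean ± SD. The 3 P18 Irx5KO libraries, 98.6 to 168 CPM, lie above the 3 P18 WT libraries, 50.9 to 73.2 CPM, while at P20 both genotypes are high on the earlier date and low on the later date.

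The receptors differed less at P18. Igf1r had 229, 155 and 158 CPM in P18 Irx5KO libraries, against 169, 119 and 114 CPM in P18 WT libraries. The group ranges overlapped. Within dates the ratio of Irx5KO to WT was 1.59 on the earlier and 1.37 on the later date, each with 1 library in an arm. The log2 fold change of Igf1r was 0.56 ± 0.25 (SE). Igf2r had 191, 135 and 141 CPM in Irx5KO, against 135, 99.7 and 96.4 CPM in WT, and the lowest Irx5KO library was barely above the highest WT library. Its log2 fold change was 0.61 ± 0.44. Insr had 85.5, 62.4 and 69.2 CPM in Irx5KO, against 71.7, 89.2 and 69.9 CPM in WT, a log2 fold change of 0.00 ± 0.32.

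The other carriers showed no common direction at P18. Igfbp4 averaged 321 ± 53.8 CPM in Irx5KO and 309 ± 53.7 CPM in WT (SD, n = 3 each), and Igfbp5 averaged 265 ± 89.8 CPM in Irx5KO and 228 ± 23.4 CPM in WT. Igfbp6 had 50.1, 36.9 and 36.6 CPM in Irx5KO, against 25.5, 26.2 and 58.4 CPM in WT. On the earlier date Igfbp6 was 1.94 times the WT level in Irx5KO, and on the later date 0.629 times. Igfbp3 had 96.7, 107 and 77.3 CPM in Irx5KO, against 84.6, 112 and 198 CPM in WT, and WT library 3 held the one high value. Igfbp2 was low, with 0.0856 to 0.509 CPM in Irx5KO and 1.17 to 3.35 CPM in WT. All 27 Igfbp2 counts of P18 Irx5KO library 2 were in a transcript not annotated as protein-coding. Of the 9 members 6 had a positive and 3 a negative P18 log2 fold change, with a median of 0.14, against a median of -0.55 over all genes tested and -0.0034 over the 10536 genes with a mean of at least 8 CPM.

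At P20 the pooled comparison called 0 of the 9 members and 0% of the 24592 genes in edgeR, with 1082 genes at an unadjusted p under 0.05. DESeq2 called 104 genes and voom 42, and 0 members in each. Igfbp7 had 43.5, 24.3, 212 and 267 CPM in Irx5KO libraries 1 to 4, against 50.9, 39.8, 137 and 197 CPM in WT libraries 1 to 4. The 4 libraries of the later date lay between 24.3 and 50.9 CPM and the 4 of the earlier date between 137 and 267 CPM, whatever the labelled genotype. The pooled log2 fold change of Igfbp7 was 0.05 ± 0.25 (SE, edgeR adjusted p = 0.99, 95% interval -0.48 to 0.58). On the later date Igfbp7 had a log2 fold change of -0.42 ± 0.30 (edgeR adjusted p = 0.79), and on the earlier date, in libraries labelled against their Irx5 levels, 0.52 ± 0.29 (edgeR adjusted p = 0.40). The difference between the dates did not pass either (-0.95 ± 0.42, edgeR adjusted p = 0.27).

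Igfbp4 and Igfbp5 passed the test within each P20 date, with opposite signs by label. Igfbp4 had 155 and 164 CPM in Irx5KO libraries 1 and 2, against 420 and 655 CPM in WT libraries 1 and 2. Igfbp4 fell by 1.75 ± 0.28 on the log2 scale (edgeR adjusted p = 0.00625). In libraries 3 and 4 it had 879 and 774 CPM in those labelled Irx5KO, against 238 and 294 CPM in those labelled WT, and rose by 1.63 ± 0.28 (edgeR adjusted p = 0.00275). Igfbp5 had 49.7 and 22.4 CPM in Irx5KO libraries 1 and 2, against 293 and 200 CPM in WT libraries 1 and 2, and fell by 2.77 ± 0.50 (edgeR adjusted p = 0.032). In libraries 3 and 4 it had 561 and 349 CPM in those labelled Irx5KO, against 82.0 and 156 CPM in those labelled WT, and rose by 1.93 ± 0.48 (edgeR adjusted p = 0.045). These were 2 of 9 members called on each date, beside 0.655% of all genes tested on the later date (0.138% higher and 0.516% lower) and 4.83% on the earlier date (2.2% higher and 2.63% lower). On each date both genes were higher in the 2 libraries with more Mki67. The part of cell division in these differences was not tested.

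Leaving out single libraries ended some of these calls with the direction kept. A library from the comparison leaves 1 library in its arm, which is then assumed to vary like the others. With a library from outside the comparison left out, both arms keep 2 libraries and only the shared fit over all libraries changes. Igfbp4 in libraries 1 and 2 did not pass without Irx5KO library 1 (-1.67, edgeR adjusted p = 0.19) or Irx5KO library 2 (-1.79, edgeR adjusted p = 0.21), and in libraries 3 and 4 without WT library 3 (1.44, edgeR adjusted p = 0.11). Igfbp5 in libraries 1 and 2 did not pass without Irx5KO library 2 (-2.28), WT library 1 (-2.46), WT library 2 (-3.02), P18 WT library 1 (-2.77) or P18 WT library 2 (-2.77). Igfbp5 in libraries 3 and 4 did not pass without Irx5KO library 3 (1.56), Irx5KO library 4 (2.24), WT library 3 (1.49), P20 WT library 1 (1.93), P20 WT library 2 (1.94), P18 WT library 1 (1.93) or P18 WT library 2 (1.94). Without the 3 receptor-rich libraries Igfbp5 did not pass on either date (-2.98 in libraries 1 and 2 and 1.94 in libraries 3 and 4), and its date difference was -4.92 (edgeR adjusted p = 0.072). With scaling on all tested genes Igfbp4 did not pass on either date (-1.61 and 1.53), while its date difference passed under all 24 alternatives run. Igfbp5 in libraries 3 and 4 also did not pass with that scaling (1.83, edgeR adjusted p = 0.071), with transcript length offsets (1.83, edgeR adjusted p = 0.052) or with only the libraries compared (1.88, edgeR adjusted p = 0.051), and passed under 13 of 24 alternatives. In libraries 1 and 2 it did not pass with voom (-2.83, voom adjusted p = 0.20).

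**Figure D2:**
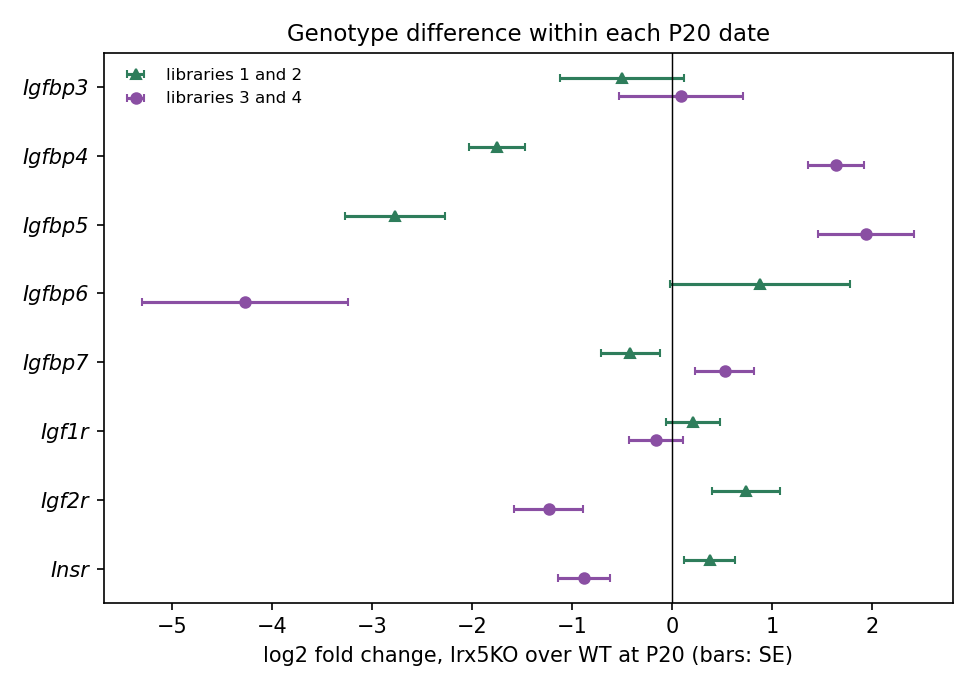
Log2 fold change of Irx5KO over WT at P20 (x axis, bars ± SE) for 8 members (rows), in libraries 1 and 2 (triangles, later date) and in libraries 3 and 4 (circles, earlier date, where Irx5 goes against the labels). Igfbp4 and Igfbp5 lie at -1.75 and -2.77 in libraries 1 and 2 and at 1.63 and 1.93 in libraries 3 and 4, and Igf2r, Insr and Igfbp6 lie on the other side of 0 from them on each date. Igfbp2 is not drawn because it was at 0 in 2 libraries.

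The genotype difference itself differed between the P20 dates for 3 of the 9 members, beside 5.18% of all genes tested (2.5% higher and 2.68% lower). The difference in log2 fold change, libraries 1 and 2 minus libraries 3 and 4, was -3.39 ± 0.39 for Igfbp4 (edgeR adjusted p = 8.3e-05), -4.70 ± 0.69 for Igfbp5 (edgeR adjusted p = 0.0021) and 1.97 ± 0.48 for Igf2r (edgeR adjusted p = 0.025). The count, the share and these differences all take the labels of libraries 3 and 4 as given, against their Irx5 levels. The within-date values, libraries 1 and 2 and then libraries 3 and 4, have opposite signs: -1.75 and 1.63 for Igfbp4, -2.77 and 1.93 for Igfbp5, and 0.73 and -1.24 for Igf2r. Igf2r had 95.8 and 130 CPM in Irx5KO libraries 1 and 2, against 91.6 and 44.3 CPM in WT libraries 1 and 2. In libraries 3 and 4 it had 67.2 and 90.6 CPM in those labelled Irx5KO, against 228 and 144 CPM in those labelled WT. Within libraries 3 and 4 Igf2r (-1.24 ± 0.34, edgeR adjusted p = 0.052) did not pass the test, although it passed without P18 Irx5KO library 1 (-1.29), P18 WT library 1 (-1.24), 2 (-1.24) or 3 (-1.29), or P20 WT library 1 (-1.24), 2 (-1.23) or 4 (-1.59). The date difference of Igf2r did not pass without P20 Irx5KO library 2 (1.83), Irx5KO library 3 (1.76), WT library 2 (1.54) or WT library 3 (1.71). Nor did it pass with transcript length offsets (1.31, edgeR adjusted p = 0.34), TMM on all tested genes (2.07, edgeR adjusted p = 0.12) or voom (2.06, voom adjusted p = 0.061). Igf2r within libraries 3 and 4 passed under 11 of 24 alternatives, among them DESeq2 (-1.22), voom (-1.23), no filter on low counts (-1.24) and the fit without the 3 receptor-rich libraries (-1.23). Airn, the antisense transcript of Igf2r, had no counts here, which can also mean that it was not among the transcripts quantified.

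Insr and Igfbp6 had the signs of Igf2r on each date, and their calls depended on the setting. Insr had 68.5 and 80.5 CPM in Irx5KO libraries 1 and 2, against 60.2 and 54.8 CPM in WT libraries 1 and 2. Libraries 3 and 4 had 42.3 and 50.1 CPM of Insr under the Irx5KO label, against 100 and 70.0 CPM under the WT label, a log2 fold change of -0.88 ± 0.26 (edgeR adjusted p = 0.064). Igfbp6 had 22.6 and 31.7 CPM in Irx5KO libraries 1 and 2, against 13.7 and 15.9 CPM in WT libraries 1 and 2. Libraries 3 and 4 had 0.412 and 7.23 CPM of Igfbp6 under the Irx5KO label, against 102 and 46.6 CPM under the WT label, a log2 fold change of -4.27 ± 1.03 (edgeR adjusted p = 0.068). The library labelled Irx5KO 3 held 6 Igfbp6 counts. Without it the Igfbp6 value was -3.36 (edgeR adjusted p = 0.0021), and without the library labelled Irx5KO 4 it was -7.48 (edgeR adjusted p = 8e-05). Igfbp6 in libraries 3 and 4 also passed with DESeq2 (-4.26), voom (-5.13), TMM on all tested genes (-4.39), length offsets (-4.38), coding transcripts alone (-4.21), no filter on low counts (-4.27) and a filter of 1 CPM in 3 libraries (-4.27), 9 of 24 alternatives in all. Insr passed there under 5 of 24, with DESeq2 (-0.86), without the 3 receptor-rich libraries (-0.88) and without P18 Irx5KO library 1 (-0.94), P18 WT library 3 (-0.94) or P20 WT library 2 (-0.88). The date difference of Igfbp6 (5.14 ± 1.35, edgeR adjusted p = 0.085) passed without the library labelled Irx5KO 3 (4.24) or 4 (8.36), and that of Insr (1.26 ± 0.36, edgeR adjusted p = 0.058) without P18 Irx5KO library 1 (1.35), P18 WT library 3 (1.35) or P20 WT library 4 (1.59). For both genes the groups did not overlap within either date, and the same held for Igfbp4, Igfbp5 and Igf2r. In libraries 3 and 4 it held for Igfbp2 and Igfbp7 as well. The share of all genes without overlap, with 2 libraries per arm, was not counted. The lack of overlap is therefore no result about these members in particular.

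Igf1r and Igfbp3 did not pass at P20 on either date. Igf1r had 227, 244, 206 and 177 CPM in Irx5KO libraries 1 to 4, against 235, 173, 257 and 171 CPM in WT libraries 1 to 4. The highest Igf1r library of all 14 was 2.25 times the lowest, the narrowest range of the 9 members. Igfbp3 had 127, 36.1, 149 and 146 CPM in Irx5KO, against 152, 79.5, 79.5 and 198 CPM in WT. The groups overlapped for both genes. Igfbp2 had 0 counts in the libraries labelled Irx5KO 3 and 4 together, against 25 and 9 in the libraries labelled WT 3 and 4. Against a floor of 3 counts over the group this is 7.95-fold lower by read counts alone, which leave out the spread between libraries. Igfbp2 did not pass there in edgeR, and passed with DESeq2 (-5.91) and voom (-4.54), 2 of 24 alternatives.

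**Figure D3:**
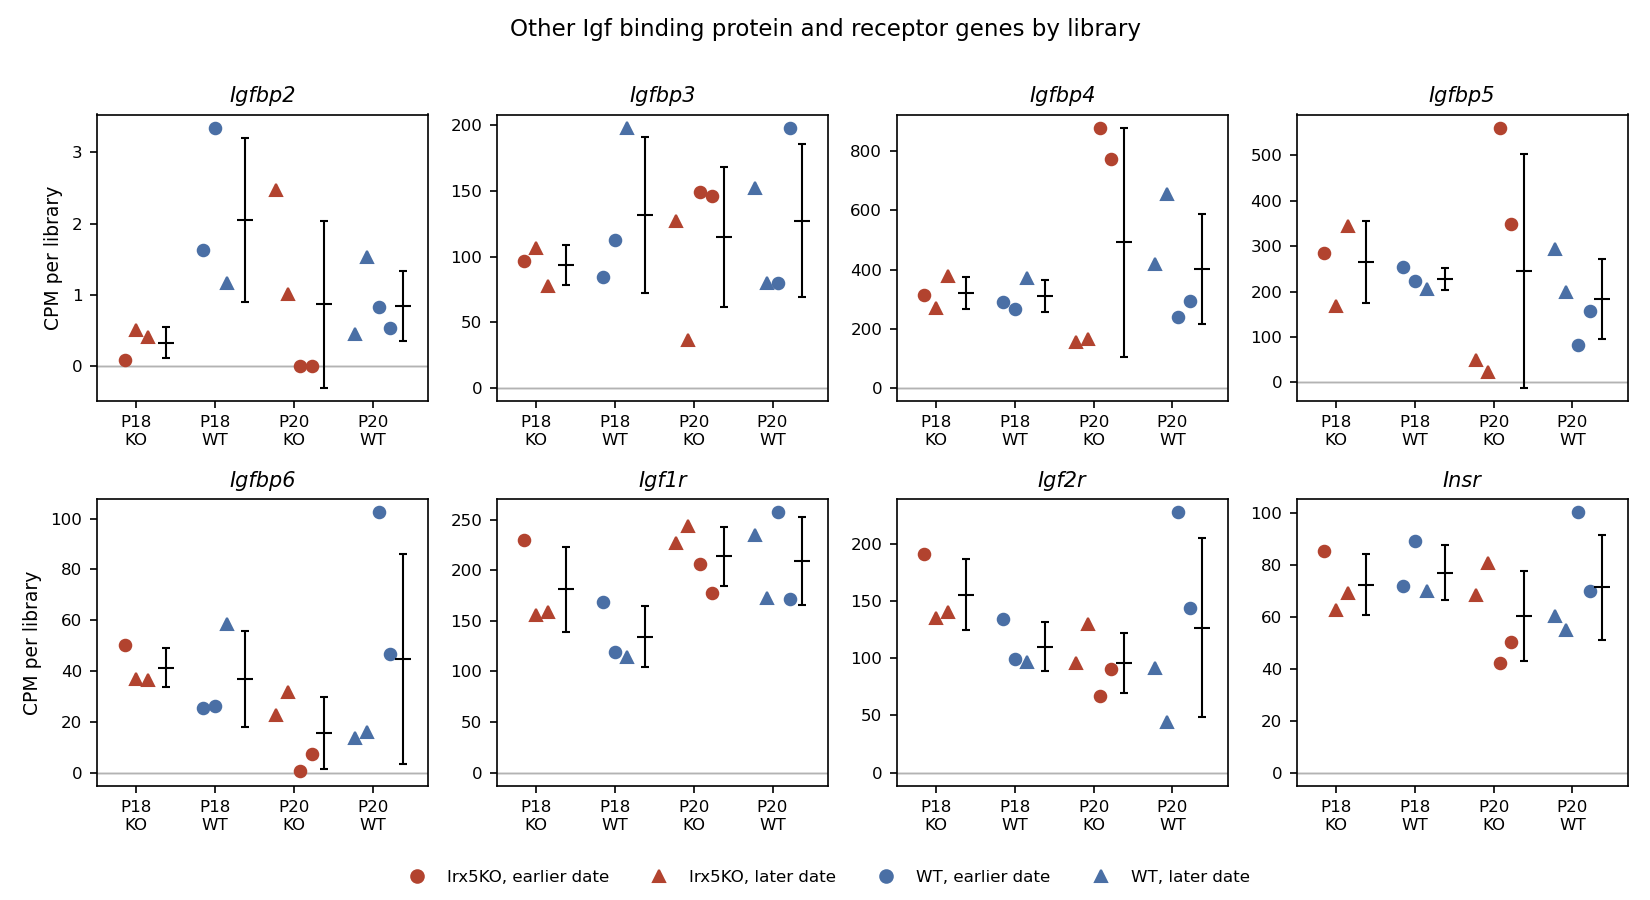
Level in CPM (y axes, 1 scale per gene) of the other 8 members in each library, by age and genotype (x axes). Circles are the earlier and triangles the later date of each age, and ticks with bars are group means ± SD. In the P20 libraries labelled Irx5KO, Igfbp4 lies at 155 and 164 CPM on the later date and at 879 and 774 CPM on the earlier date, while for Igf1r and Igfbp3 the dates overlap in the P20 libraries labelled WT.

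Across the 14 libraries, log2 levels of the members were set beside those of Mki67. Pearson's r was 0.82 for Igfbp4 and 0.56 for Igfbp5, and -0.82 for Igfbp6, -0.80 for Insr, -0.69 for Igf2r and -0.54 for Igfbp2. It was 0.21 for Igfbp3, 0.19 for Igfbp7 and 0.05 for Igf1r. These are descriptions over 14 libraries that share dates and groups, and 4 P20 libraries hold all the high Mki67 values. At P18, where Mki67 stayed between 14.1 and 36.5 CPM, Igfbp4 ranged from 268 to 377 CPM. P20 Irx5KO libraries 1 and 2, with Mki67 at 18.5 and 14.5 CPM, had less Igfbp4, 155 and 164 CPM. The P20 libraries labelled WT 3 and 4, with Mki67 at 10.5 and 3.75 CPM, had 238 and 294 CPM. The summed cell division list in libraries 3 and 4 was 2927 and 3152 CPM under the Irx5KO label, against 27.4 and 18.5 CPM under the WT label.

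**Figure D4:**
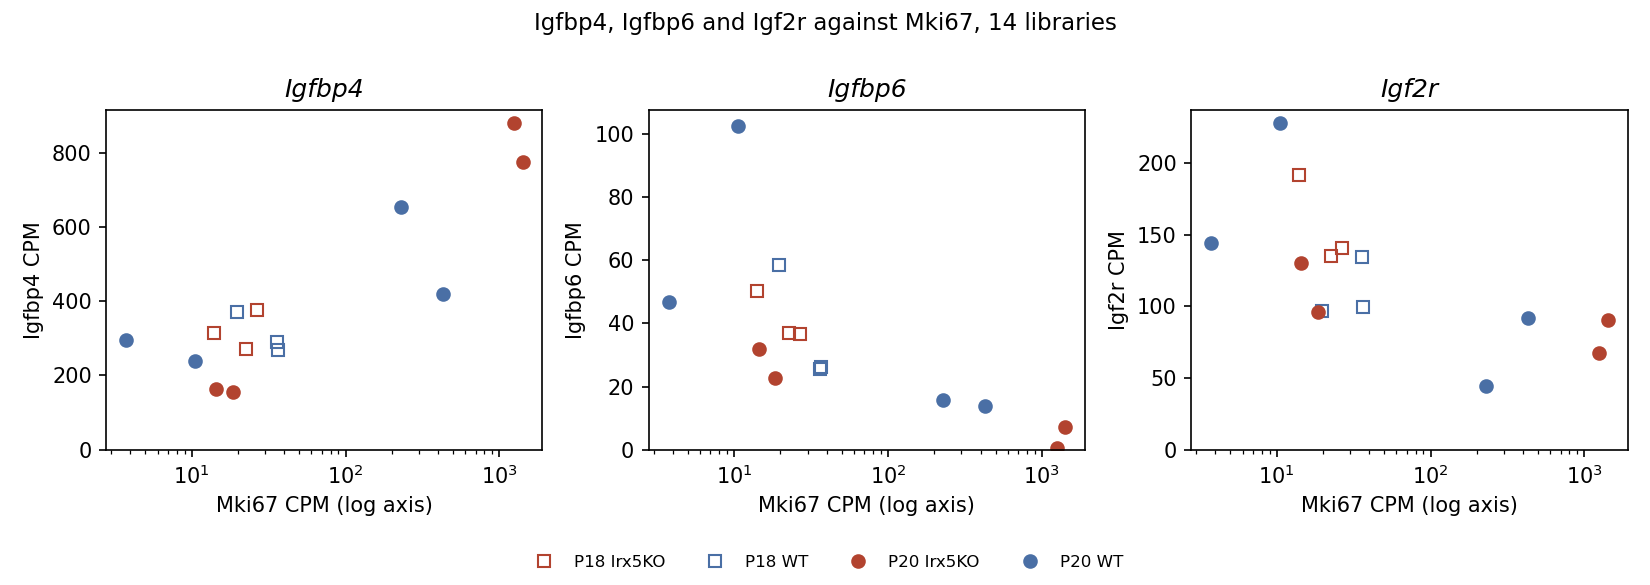
Levels of Igfbp4, Igfbp6 and Igf2r in CPM (y axes) against Mki67 in CPM (x axes, log scale), 1 point per library, with P18 as open squares and P20 as filled circles. Igfbp4 is highest, at 879 and 774 CPM, and Igfbp6 lowest, at 0.412 and 7.23 CPM, in the 2 libraries with 1252 and 1418 CPM of Mki67.

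Igfbp7 was most like Lrp12 (r = 0.87), Casd1 (r = 0.87), Gsk3b (r = 0.86), Alg10b (r = 0.86) and Ibtk (r = 0.86), by Pearson's r of log2 levels over the 14 libraries among 9927 genes compared. Gsk3b encodes a kinase that AKT inhibits, and Lrp12 a member of the low-density lipoprotein receptor family. No p is given for a likeness picked as the highest of so many.

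Between ages, 0 of the 8 members tested passed in either labelled genotype, Igfbp7 being described only, beside 1.57% of all genes in Irx5KO (0.61% higher and 0.96% lower) and 0.195% in WT (0.0691% higher and 0.126% lower). These comparisons share libraries with the genotype comparisons. Age and date cannot be told apart, because each age has its own dates. Igfbp7 averaged 137 ± 121 CPM in the P20 libraries labelled Irx5KO (n = 4) and 125 ± 38.0 CPM in P18 Irx5KO (n = 3), and 106 ± 74.3 CPM in the P20 libraries labelled WT (n = 4) and 63.3 ± 11.3 CPM in P18 WT (n = 3, SD throughout). Of these P20 libraries, numbers 3 and 4 of each label have Irx5 levels that go against it. Without P20 libraries 3 and 4, the P20 over P18 log2 fold change of Igfbp7 was -1.88 in Irx5KO and -0.46 in WT, against 0.13 ± 0.77 and 0.74 ± 0.78 (SE) with them. Igf1r averaged 209 ± 43.7 CPM in the P20 libraries labelled WT and 134 ± 30.0 CPM in P18 WT, a log2 fold change of 0.64 ± 0.24 (edgeR adjusted p = 0.38). Without P20 libraries 3 and 4, Igfbp5 fell by 2.88 on the log2 scale in P20 against P18 Irx5KO (edgeR adjusted p = 0.0049), against -0.11 ± 0.85 with them.

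Proteases and their inhibitors set how long a carrier holds its ligand. Of 11 such genes 10 were tested. In P20 libraries 3 and 4, where the direction follows labels that Irx5 goes against, 1 of them fell, beside 2.63% of all genes lower there, namely Mmp2, a matrix metalloprotease, with -2.17 ± 0.41 (edgeR adjusted p = 0.0077), and 0 rose. In libraries 1 and 2 Mmp2 had 1.82 ± 0.41 and did not pass (edgeR adjusted p = 0.080), and the date difference of 3.99 ± 0.58 passed (edgeR adjusted p = 0.00093). Mmp14, a membrane matrix metalloprotease, fell by 1.33 ± 0.25 in P20 against P18 Irx5KO (edgeR adjusted p = 0.014), beside 0.96% of all genes lower there. That comparison also includes P20 libraries 3 and 4, and age and date cannot be told apart in it. At P18 the 4 with the smallest p were Pappa, which cuts Igfbp4, with a log2 fold change of 1.17 ± 0.39, Adam9 with 0.74 ± 0.33, Mmp14 with 0.60 ± 0.28 and Pappa2 with -1.67 ± 0.96 (edgeR adjusted p = 0.92 for each). Of the 10, 6 were positive and 4 negative, with a median of 0.14, and 0 passed.

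Among the 15 genes for receptor adaptors and their regulators, Socs3, an inhibitor of cytokine signalling that also binds insulin receptors, rose in P20 libraries 1 and 2 by 1.66 ± 0.34 (edgeR adjusted p = 0.035), the only one called there, beside 0.655% of all genes. By labels that Irx5 goes against, Socs3 fell in libraries 3 and 4 by 1.95 ± 0.34 (edgeR adjusted p = 0.0034) and Grb14, an adaptor that inhibits the insulin receptor, rose by 2.12 ± 0.37 (edgeR adjusted p = 0.0030), 2 of 15 beside 4.83% of all genes. The date difference passed for 3 of the 15, Socs3 (3.61 ± 0.48), Grb14 (-3.35 ± 0.51) and Irs1, an insulin receptor substrate (1.71 ± 0.44, edgeR adjusted p = 0.033), beside 5.18% of all genes.

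Of 18 genes of the PI3K, AKT and mTOR route, 0 passed in libraries 1 and 2. By the same labels 3 fell in libraries 3 and 4, beside 2.63% of all genes lower there: Pik3r1, a regulatory subunit of PI3K (-1.13 ± 0.26, edgeR adjusted p = 0.020), Pik3cb, a catalytic subunit (-1.12 ± 0.29, edgeR adjusted p = 0.036), and Tsc1, an inhibitor of mTOR (-1.52 ± 0.41, edgeR adjusted p = 0.049). Rheb, an activator of mTOR, fell by 1.28 ± 0.26 in P20 against P18 Irx5KO (edgeR adjusted p = 0.022). It was the only gene of this list called between ages, beside 0.96% of all genes lower in that comparison. The comparison includes P20 libraries 3 and 4, whose Irx5 levels go against the label, and age and date cannot be told apart. The date difference was positive and passed for Pik3r1 (1.87 ± 0.37), Pik3cb (1.69 ± 0.40) and Tsc1 (2.12 ± 0.57), beside 2.5% of all genes. The median log2 fold change of the list was 0.19 in libraries 1 and 2 and -0.04 in libraries 3 and 4.

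FOXO factors are transcription factors that AKT holds out of the nucleus. Of 14 FOXO and target genes, 2 rose and 4 fell in libraries 3 and 4, beside 2.2% of all genes higher and 2.63% lower, again by labels that Irx5 goes against. Sesn3, a stress-response gene, rose by 1.72 ± 0.30 (edgeR adjusted p = 0.0036) and Foxo6 rose by 2.20 ± 0.55 (edgeR adjusted p = 0.032). Fbxo32, a ubiquitin ligase subunit, fell by 2.46 ± 0.45 (edgeR adjusted p = 0.0043), Pink1, a mitochondrial kinase, fell by 1.55 ± 0.28 (edgeR adjusted p = 0.0044), and Cited2 and Foxo3 fell by 1.23 ± 0.28 and 1.29 ± 0.35 (edgeR adjusted p = 0.019 and 0.045). In libraries 1 and 2, 0 of the 14 passed, with Sesn3 at -1.15 ± 0.30 (edgeR adjusted p = 0.14). The list median was 0.40 in libraries 1 and 2 and -0.97 in libraries 3 and 4, against -0.34 and 0.00 over all genes tested. Over the well expressed genes the medians were -0.049 and -0.0047. Fibroblast and papilla markers had a median of -2.99 in libraries 3 and 4 and endothelial markers -2.58. Of the 12 endothelial markers 10 and 8 were at 0 in the libraries labelled Irx5KO 3 and 4, against 2 in each of those labelled WT. Their sums were near the floor, 7.29 and 5.52 CPM against 9.52 and 14.7 CPM. The libraries labelled Irx5KO 3 and 4 also had fewer genes detected in all, 15479 and 15204, against 19740 and 18410 under the WT label. The part of these marker lists in the FOXO values was not tested.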

How the data were processed

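RNA of sorted hair follicle stem cells was sequenced in 14 libraries. Per the labels' protocols, libraries came from total RNA with a TruSeq kit and were read from a single end, and transcripts were quantified with kallisto 0.46.2. The submitters' processing notes name mm10 and DESeq2, with no role given. The deposited files hold estimated counts and TPM per transcript, both made by the authors. Strand settings are not given in the sources used here.

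Of 118489 transcripts listed, 116816 matched GENCODE vM21. The other 1673, with 1.19% to 2.59% of each library's counts, were left out. Estimated counts were summed by gene and rounded, and TPM were summed by gene. The first transcript listed had an effective length of 4.16 bases in the 3 libraries of the later P18 date and 4.23 in the other 11, so quantification settings may differ between dates, which bears on TPM and on comparisons across dates. Genes were kept by edgeR's filterByExpr, leaving 24592. Libraries were scaled by TMM on the 10536 genes with a mean of at least 8 CPM, because receptor genes took a raised share of 3 libraries. With TMM on all tested genes instead, the median log2 fold change of well expressed genes moved by over 0.1 in 4 comparisons: to 0.34 at P18, -0.11 in P20 libraries 3 and 4, 0.17 for the date difference and 0.40 between ages in WT.

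Tests were edgeR 4.0.16 quasi-likelihood tests (R 4.3.3) in fits over all 14 libraries, with Benjamini-Hochberg adjustment over all genes tested and a threshold of 0.05. Genotype comparisons carried the date within age as a covariate, and comparisons within P20 dates had 1 term per date and genotype. The SE was the log2 fold change divided by the square root of F. Alternatives included limma 3.58.1 (voom), DESeq2 1.42.0, other scalings and filters, transcript length offsets and each library left out. The fits were tested on simulated data. At P18, libraries with the same number correlated (0.36, 0.15 and 0.29 over deviations from the group means). P18 Irx5KO library 2 and WT library 2 were from different dates, and the main fits did not pair libraries by number. At P20, 1 of 4 such correlations was 0.04. A block by number in place of the date was run only as an alternative, at both ages. No 2 libraries of a group agreed within sampling noise.

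Named genes were the 9 members, Irx5, Mki67, the 5 well expressed genes most like Igfbp7 by Pearson's r, and up to 4 genes with the smallest p in a comparison from each other list. Foxo6 and Foxo3 in P20 libraries 3 and 4, and Krt15, Cd34, Lhx2, Thy1, Ddx3y, Polr2b and Airn, fall outside this rule and were chosen after their values were seen. The members and lists were chosen with earlier results of these data known. One result of the pathway lists is not reported here.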

Additional observations from a re-analysis of the deposited data

Results flagged for a closer look

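The genotype difference of 3 members differed between the P20 dates by a test of the difference itself, libraries 1 and 2 minus libraries 3 and 4, where Irx5 goes against the labels. The difference in log2 fold change was -3.39 for Igfbp4, -4.70 for Igfbp5 and 1.97 for Igf2r, with edgeR adjusted p of 8.3e-05, 0.0021 and 0.025, beside 5.18% of all genes tested. Each takes the labels of libraries 3 and 4 as given. The within-date values were -1.75 and 1.63 for Igfbp4, -2.77 and 1.93 for Igfbp5, and 0.73 and -1.24 for Igf2r.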

How the results depend on the processing

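Values are log2 fold changes of Irx5KO over WT, or of P20 over P18, unless they are counts. The date difference of Igfbp4 kept its call under all 24 alternatives run. The cause of the changes below was not tested. With 2 libraries per arm, precision within a P20 date is limited.

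Under the replicate block, 0 genes passed at P18 and at P20 and Igfbp7 at P18 was 0.95 ± 0.29, and the block changed no call of a member.

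Without a date term, the pooled P20 values were 0.059 for Igfbp2, 0.29 for Igfbp4 and 0.43 for Igfbp5. Without P20 libraries 3 and 4 they were 0.81 for Igfbp2, 0.88 for Igfbp6, -0.43 for Igfbp7, 0.72 for Igf2r and 0.37 for Insr, with 119 genes and 2 members called (Igfbp4, -1.75, and Igfbp5, -2.78). In the same setting the age values in Irx5KO were -0.20 for Igfbp3, -1.01 for Igfbp4 and 0.040 for Insr. The 2 members counted there, among 568 genes called of 27599 tested, were Igfbp5 (-2.88) and Igfbp7 (-1.88). The P18 values of Igfbp7 chose it, so that its call is no test. The age values in WT were 0.13 for Igfbp5, -1.30 for Igfbp6 and -0.67 for Igf2r with 233 genes called.

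With voom, pooled P20 values were 0.80 for Igfbp4 and 0.90 for Igfbp5, age values in Irx5KO -0.092 for Igfbp3 and -0.50 for Igfbp4, and in WT 0.53 for Igfbp3 and 0.10 for Insr. It called 1 gene at P18, 42 at P20, 32 (1 member) in libraries 1 and 2, 1894 (5 members) in libraries 3 and 4, 1282 between ages in Irx5KO and 14315 in WT. Without the 3 receptor-rich libraries, pooled P20 values were 0.33 for Igfbp4 and -0.079 for Igf1r, and age values in WT -0.26 for Igfbp4, -0.15 for Igfbp6 and 0.092 for Insr. That setting called 1 member in libraries 1 and 2, 1879 genes in libraries 3 and 4 and 2 genes between ages in WT.

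With coding transcripts alone, a choice made after seeing the data, Igfbp4 was 0.037 at P20, Igf2r was -0.014 between ages in WT and 18 genes passed there. With TMM on all tested genes, Igf1r was -0.012 at P20 and Igfbp3 -0.013 in libraries 3 and 4, and age values in WT were 0.30 for Igfbp3, 0.059 for Igfbp5 and 0.34 for Insr. It called 1 member on each P20 date, among 116 genes in libraries 1 and 2 and 1028 in libraries 3 and 4. Between ages it called 101 genes in Irx5KO and 0 in WT. With length offsets, P20 values were -0.11 for Igf1r and 0.12 for Igf2r, with -0.075 for Igf1r in libraries 1 and 2, -0.012 for Igfbp3 in libraries 3 and 4 and -0.44 for Igf2r between ages in WT. Genes called were then 101 in libraries 1 and 2, 224 between ages in Irx5KO and 26 in WT.

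DESeq2 called 23 genes at P18, 104 at P20, 447 in libraries 1 and 2, 2613 (6 members) in libraries 3 and 4, 2404 (6 members) for the date difference, 1391 between ages in Irx5KO and 677 in WT. Igfbp3 between ages in WT was 0.044 with DESeq2 and 0.044 with RLE scaling. Without a low-count filter, with 34049 genes tested, 183 passed at P18 and 209 (1 member) at P20. In the same setting 668 passed in libraries 1 and 2, 2100 (4 members) in libraries 3 and 4 and 2041 for the date difference. Fitting only the libraries compared called 1 member in libraries 3 and 4, among 981 genes called of 16783 tested. Between ages it called 148 genes in Irx5KO and 0 in WT. A minimum of 1 CPM in 3 libraries gave 5 members for the date difference, among 1361 genes called of 19219 tested. Ranked by CPM instead of TPM, Igfbp5 was 2, Igf1r 3, Igf2r 4, Igfbp3 5, Igfbp7 6, Insr 7 and Igfbp6 8. DESeq2 gave no adjusted p for Igfbp2 in 2 comparisons.

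Leaving out each library in turn gave these ranges. At P20, Igfbp3 ran from -0.57 to 0.093, Igfbp4 from -0.69 to 0.52, Igfbp5 from -1.47 to 0.64, Igfbp7 from -0.14 to 0.27, Igf1r from -0.092 to 0.20 and Igf2r from -0.66 to 0.087. In libraries 1 and 2, Igfbp3 ran from -1.61 to 0.18, genes called from 29 to 255 and members called from 0 to 2. In libraries 3 and 4, Igfbp3 ran from -0.48 to 0.84, Igf1r from -0.48 to 0.11, genes called from 424 to 1575 and members called from 0 to 4. For the date difference, Igfbp3 ran from -1.65 to 0.14, genes called from 649 to 1446 and members called from 2 to 4. Between ages in Irx5KO, Igfbp5 ran from -0.91 to 0.15 and genes called from 56 to 419. Between ages in WT, Igfbp3 ran from -0.36 to 0.37, Igfbp6 from -0.55 to 0.78, Igf2r from -0.27 to 0.47 and genes called from 5 to 88. At P18, genes called ran from 0 to 1.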
